A study of Rattus norvegicus with 12 samples.

Results

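Neuropeptides and gut hormones are short secreted messengers, and 10 of the genes that encode them were followed here in the colon and the hippocampus of rats. The 10 were taken by symbol from the deposited tables of expression: Vip, Cck, Sst, Npy, Tac1, Penk, Gal, Cartpt, Pyy and Gcg. All 10 were among the 14803 genes of the colon table, and 9 were among the 14266 genes of the hippocampus table, in which Gcg was not listed. The samples were the colon after hypoxic-ischemic brain damage (HI), the colon of sham rats, the hippocampus of HI rats and the hippocampus of sham rats, with 3 RNA libraries in each group. The title speaks of neonatal rats, while strain, age, sex, the way of injury and the time after it are not given in the labels used here. No genotype, drug or transgene is named, and the labels do not say whether a library is 1 animal or a pool, nor whether colon and hippocampus came from the same animals. The design asks, tissue by tissue, which of them HI and sham animals express at another level.

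Each of these peptides is cut from a longer precursor in secretory granules, and most are known to act on G protein-coupled receptors of nearby or distant cells. In the gut wall Vip, Tac1, Penk, Gal, Npy and Cartpt are products of enteric neurons, whereas Gcg, Pyy and Cck are products of hormone cells of the epithelium, and Sst is made by both. In the hippocampus Sst, Npy, Vip and Cck are classical products of inhibitory interneurons, and Cck is also transcribed in excitatory cells.

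Expression was given as FPKM, a fragment count divided by transcript length and by the mapped total, so that genes of unlike length can be compared. The sequencing depth is unknown, so no counting interval is given, and the listed FPKM of a library added up to between 495505 and 509775 in the colon and between 452291 and 466432 in the hippocampus. A pair of colon sham columns share 1 name, and sham 3a and sham 3b stand for them here. Some libraries stood apart from others of their group before any peptide gene was considered. In the hippocampus, HI 1 held 4177 FPKM of Ttr, the transthyretin gene that the choroid plexus transcribes in large amounts, against at most 18.2 FPKM in the other 5 libraries. The 3 listed genes of the Y chromosome summed to 53.9 FPKM in hippocampus HI 1, with 0.133 FPKM or less in the remaining 5 libraries. In the colon their sum was 59.6 to 77.0 FPKM in all libraries except sham 1, where it was 0.267 FPKM. The colon and hippocampus libraries thus cannot all come from the same animals, although the labels leave this open. Hox genes set colon libraries apart too, as given below beside the values they touch.

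In the colon Gcg and Pyy, both hormone genes of the L cell, were the highest of the 10. Averaged over the 6 libraries, Gcg, the glucagon gene from which gut L cells make glucagon-like peptides, stood at 226 FPKM, above 98.0% of the listed genes. Pyy, whose peptide YY slows gut transit and appetite, stood at 137 FPKM. Their library ranges did not meet, and neither did those of Pyy and the next gene, Sst, at 55.0 FPKM. From Sst through Vip (26.8), Gal (18.6), Penk (15.3), Tac1 (7.37), Cck (7.25) and Cartpt (6.69 FPKM) each gene's range overlapped that of its neighbour. Npy was the lowest at 2.96 FPKM, with a range below that of Cartpt.

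In the hippocampus the order was another. Sst led with 245 FPKM, above 98.4% of the listed genes, then came Cck with 106 FPKM, Npy with 46.8 FPKM and Tac1 with 12.6 FPKM, and the ranges of neighbours down to Tac1 did not meet. Tac1, Vip (10.5) and Penk (8.89 FPKM) overlapped as neighbours. Cartpt followed at 5.17 and Gal at 2.59 FPKM, each apart from its neighbours. Pyy was close to absent from the table, at 0.443, 0.0545 and 0.127 FPKM in HI 1, 2 and 3 and at 1.46, 0 and 0.248 FPKM in sham 1, 2 and 3, and it was too low to be tested. The tissues came in separate tables, and how the FPKM were computed is not given. Levels in the colon and the hippocampus are therefore set side by side without a test.

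Of the 10 genes in the colon, Vip and Cck were the ones in which HI and sham libraries did not overlap, Vip lower in HI and Cck higher. Vip encodes vasoactive intestinal peptide, which relaxes gut muscle and drives secretion, and lies at 42169501 to 42177582 of chromosome 1 (+ strand; the build of these deposited coordinates is unknown). The level was 21.5, 15.5 and 21.3 FPKM in HI 1, 2 and 3, against 28.7, 40.2 and 33.6 FPKM in sham 1, 3a and 3b. Every HI library was thus below every sham library, with means of 19.4 FPKM ± 3.43 in HI and 34.2 FPKM ± 5.77 in sham (SD, n = 3 each). The difference of mean log2(FPKM + 1), HI minus sham, was -0.78 ± 0.16 (SE; 95% interval -1.17 to -0.40). It did not pass over the 13753 genes tested (limma adjusted p = 0.266, unadjusted p = 0.00179).

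Cck, the cholecystokinin gene (chromosome 8, 130120523 to 130127392, - strand), encodes a peptide that is made in hormone cells and neurons. It stood at 8.79, 12.2 and 9.38 FPKM in HI 1, 2 and 3, against 3.49, 3.19 and 6.44 FPKM in sham 1, 3a and 3b. All HI libraries were higher than all sham libraries, and sham 3b was the closest to them. Mean Cck was 2.32 times as high in HI (10.1 FPKM ± 1.84) as in sham (4.37 FPKM ± 1.80; SD, n = 3 each). The log2 difference of 1.09 ± 0.23 (SE; 95% interval 0.54 to 1.64) did not pass over all genes (limma adjusted p = 0.286, unadjusted p = 0.00214). Without sham 3b it was 1.35 and passed (adjusted p = 0.0472). With any other library left out it was 0.93 to 1.18 and did not pass (adjusted p of 0.161 to 0.933). When all 12 libraries shared 1 fit, both Cck (adjusted p = 0.0492) and Vip (adjusted p = 0.0415) passed. That fit takes 1 spread per gene from both tissues, and the hippocampus varied less (SE 0.10 for Cck and 0.076 for Vip in its own fit). The SE of the colon difference was 0.19 for Cck and 0.13 for Vip there, with the differences unchanged.

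Sst encodes somatostatin, which inhibits the release of many other hormones, and lies on chromosome 11 from 80358211 to 80359444 on the + strand. Its level was 62.1, 25.9 and 32.7 FPKM in HI 1, 2 and 3, against 71.7, 88.5 and 49.1 FPKM in sham 1, 3a and 3b. HI 2 and HI 3 were lower than any sham library, while HI 1 lay within the sham range. The log2 difference was -0.84 ± 0.33 (SE; limma adjusted p = 0.439, unadjusted p = 0.0402). By limma, 0 of the 10 genes passed an adjusted p of 0.05 in the colon, where 0.0436% of all genes tested did. An unadjusted p under 0.05 was reached by 3 of the 10 and by 11.1% of all genes. It was reached with a lower level in HI by 2 of the 10 (6.55% of all genes) and with a higher level by 1 of the 10 (4.60%). Groups without overlap were seen in 2 of the 10 and in 15.9% of all genes, with HI above in 1 (5.63%) and below in 1 (10.3%). The log2 difference was below 0 for 9 of the 10 (59.1% of all genes), with a median of -0.22, beside -0.035 over all genes. The highest library was at least 2 times the lowest for 7 of the 10 and for 14.8% of all genes. In bulk tissue such as this, fewer cells of a type and less RNA per cell cannot be told apart. With 3 libraries a group an exact two-sided permutation test of a single gene cannot go below 0.1.

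**Figure D1:**
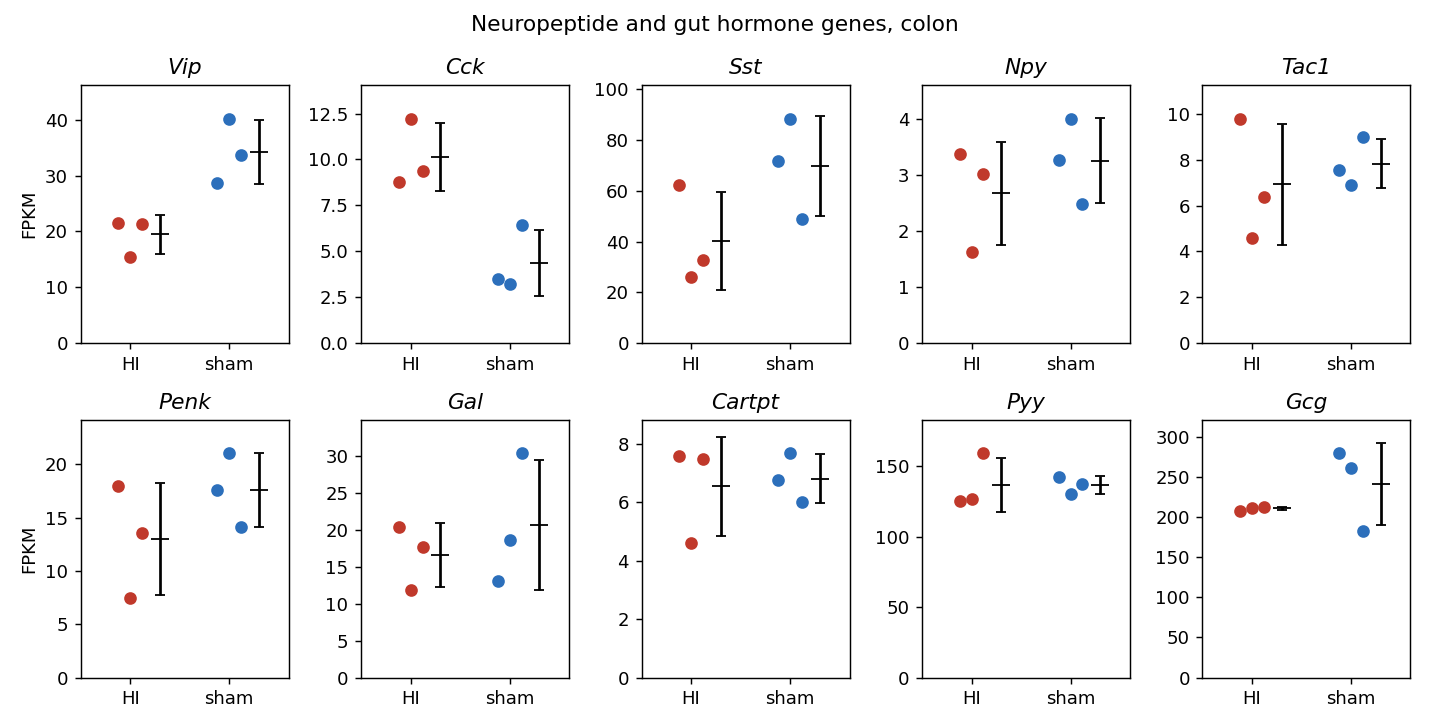
FPKM of the 10 genes in the colon, 1 point per library with HI on the left and sham on the right of each panel; bars are the mean and SD of 3 libraries, and each panel has its own axis from 0. The 3 HI libraries lie below the 3 sham libraries for Vip (15.5 to 21.5 against 28.7 to 40.2 FPKM) and above them for Cck (8.79 to 12.2 against 3.19 to 6.44 FPKM), and the groups overlap for the other genes.

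Among the other neuronal peptides of the colon, none separated HI from sham. Penk, the precursor of the enkephalins, which slow gut movement through opioid receptors, had 18.0, 7.47 and 13.5 FPKM in HI 1, 2 and 3, against 17.6, 21.0 and 14.2 FPKM in sham 1, 3a and 3b. Gal, whose product galanin modulates enteric transmission, had 20.4, 11.9 and 17.6 FPKM in HI 1, 2 and 3, against 13.03, 18.6 and 30.3 FPKM in sham 1, 3a and 3b. Tac1, the precursor of substance P and neurokinin A, which contract gut muscle, had 9.80, 4.59 and 6.38 FPKM in HI 1, 2 and 3, against 7.55, 6.91 and 8.99 FPKM in sham 1, 3a and 3b. In each of these genes HI 2 was the lowest library and HI 1 lay within the sham range or, for Tac1, above it. Npy, the neuropeptide Y gene of enteric and sympathetic neurons, ranged from 1.62 to 3.37 FPKM in HI and from 2.48 to 4.003 FPKM in sham. Cartpt, the precursor of the CART peptides of enteric neurons, ranged from 4.60 to 7.59 FPKM in HI and from 6.01 to 7.68 FPKM in sham. The log2 differences of these 5 genes lay between -0.47 ± 0.29 (SE) for Penk and -0.071 ± 0.18 for Cartpt, with limma adjusted p of at least 0.558.

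The hormone genes of the L cell varied by at most 1.53 times between the 6 colon libraries, against 1.67 to 3.84 times for the other 8 genes. Pyy had 125, 127 and 159 FPKM in HI 1, 2 and 3, against 143, 130.2 and 137 FPKM in sham 1, 3a and 3b, and its log2 difference was -0.0045 with a 95% interval of -0.25 to 0.24 (limma adjusted p = 0.991). Gcg had 208, 212 and 212 FPKM in HI 1, 2 and 3, against 279, 261 and 183 FPKM in sham 1, 3a and 3b. The HI libraries were close together within the wider sham range, and the log2 difference of -0.17 ± 0.15 (SE) did not pass (limma adjusted p = 0.680). For Gcg the 95% interval ran from -0.53 to 0.18, and with 1 library left out the difference lay between -0.36 (without sham 3b) and -0.055 (without sham 1). 

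HI 2 was the colon library with the lowest value for 7 of the 10 genes, the exceptions being Cck, Pyy and Gcg, and it was the lowest for 32.3% of all genes tested. Of the 16 tested markers of enteric neurons, 13 had their lowest value in HI 2 too. Summed over the 20 markers, the level was 219 to 327 FPKM in HI and 273 to 347 FPKM in sham, and the lowest of all libraries was HI 2. Of the 16, 0 passed and 0 reached an unadjusted p under 0.05 by limma, 13 were lower in HI, and the median log2 difference was -0.15, beside -0.035 over all genes. Phox2a, a transcription factor of autonomic neurons, differed by -0.42 ± 0.19 (SE), and Chrnb4, a nicotinic receptor subunit of enteric neurons, by -0.31 ± 0.17. Without HI 2 the difference was -0.64 ± 0.14 (SE) for Vip, -0.15 ± 0.19 for Penk, 0.025 ± 0.19 for Tac1 and 0.13 ± 0.12 for Cartpt. At equal mean level of the enteric neuron markers, a fit chosen after the data were seen, Vip differed by -0.63 ± 0.093 (SE; adjusted p = 0.352, unadjusted p = 0.000507) and Cck by 1.01 ± 0.26 (adjusted p = 0.568). Beyond these fits the part of the markers in the peptide values was not tested.

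The colon libraries were then put in order from low to high Hoxb13 relative to Hoxb6. Hox genes are expressed in sequence along the body axis, with Hoxb13 in the most posterior gut and Hoxb6 further forward. The value used was log2(Hoxb13 + 1) minus log2(Hoxb6 + 1) in FPKM. It was -5.85 in sham 3a, -5.09 in sham 1, -1.48 in HI 1, 0.96 in sham 3b, 3.85 in HI 2 and 4.13 in HI 3. Hoxb13 was 63.0 FPKM in HI 3 and listed at 0 in sham 3a, and Hoxb6 was 2.64 FPKM in HI 3 and 56.5 FPKM in sham 3a. The HI libraries thus held the 2 highest places and sham libraries the 2 lowest, and the slope of each gene along it was fitted with HI as a second term.

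Sst fell along this order. In order of the libraries from low to high value it had 88.5 (sham 3a), 71.7 (sham 1), 62.1 (HI 1), 49.1 (sham 3b), 25.9 (HI 2) and 32.7 FPKM (HI 3). HI 1 and sham 3b, in the middle of the order, were in the middle of the levels as well, and only HI 2 and HI 3, which are next to each other on the axis, changed places. The slope was -0.14 ± 0.025 log2 units per unit of the Hox value (SE; 95% interval -0.20 to -0.085; limma adjusted p = 0.0328). At equal Hox value the HI difference of Sst was -0.043 ± 0.20 (SE; adjusted p = 0.999). Sst was 1 of 362 genes, or 2.63% of the 13753 tested, that passed, 131 of them above 0 (0.953%) and 231 below (1.68%), with the Hox genes that define the value among them. The call was lost without sham 3a (-0.14, adjusted p = 0.104), sham 3b (-0.20, adjusted p = 0.0806), HI 1 (-0.11, adjusted p = 0.246) or HI 3 (-0.15, adjusted p = 0.0507), and the number of genes passing was then 144, 65, 106 and 407.

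Of the remaining genes 0 passed for the slope by limma, and with Sst 3 of the 10 reached an unadjusted p under 0.05 (14.9% of all genes), the others being Cck and Penk. Cck, in the same order of libraries, had 3.19 and 3.49 FPKM in sham 3a and sham 1, 8.79 in HI 1, 6.44 in sham 3b, and 12.2 and 9.38 in HI 2 and HI 3. Here HI 1 stood above sham 3b although its Hox value was lower. The slope was 0.089 ± 0.025 (SE; adjusted p = 0.146, unadjusted p = 0.00911). It passed without HI 3 (0.11, adjusted p = 0.0407), and without sham 3b it was 0.046 (adjusted p = 0.710). With any other library left out the slope did not pass (adjusted p of 0.220 to 0.410). At equal Hox value the HI difference of Cck was 0.60 ± 0.20 (SE; adjusted p = 0.855). For Penk the slope was -0.096 ± 0.037 (adjusted p = 0.287) and the HI difference at equal Hox value 0.058 ± 0.29. For Vip, HI 1, with 21.5 FPKM, was low and sham 3b, its neighbour in the order, with 33.6 FPKM, was high. Its slope was -0.022 ± 0.028 (SE; adjusted p = 0.782), and its HI difference at equal Hox value was -0.67 ± 0.22 (adjusted p = 0.855). The slopes of Npy, Gcg, Cartpt and Tac1 lay between -0.069 and -0.030 and those of Gal and Pyy at 0.044 and 0.0165, with adjusted p of at least 0.341. In all, 7 of the 10 slopes were below 0, beside 60.4% of all genes.

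**Figure D2:**
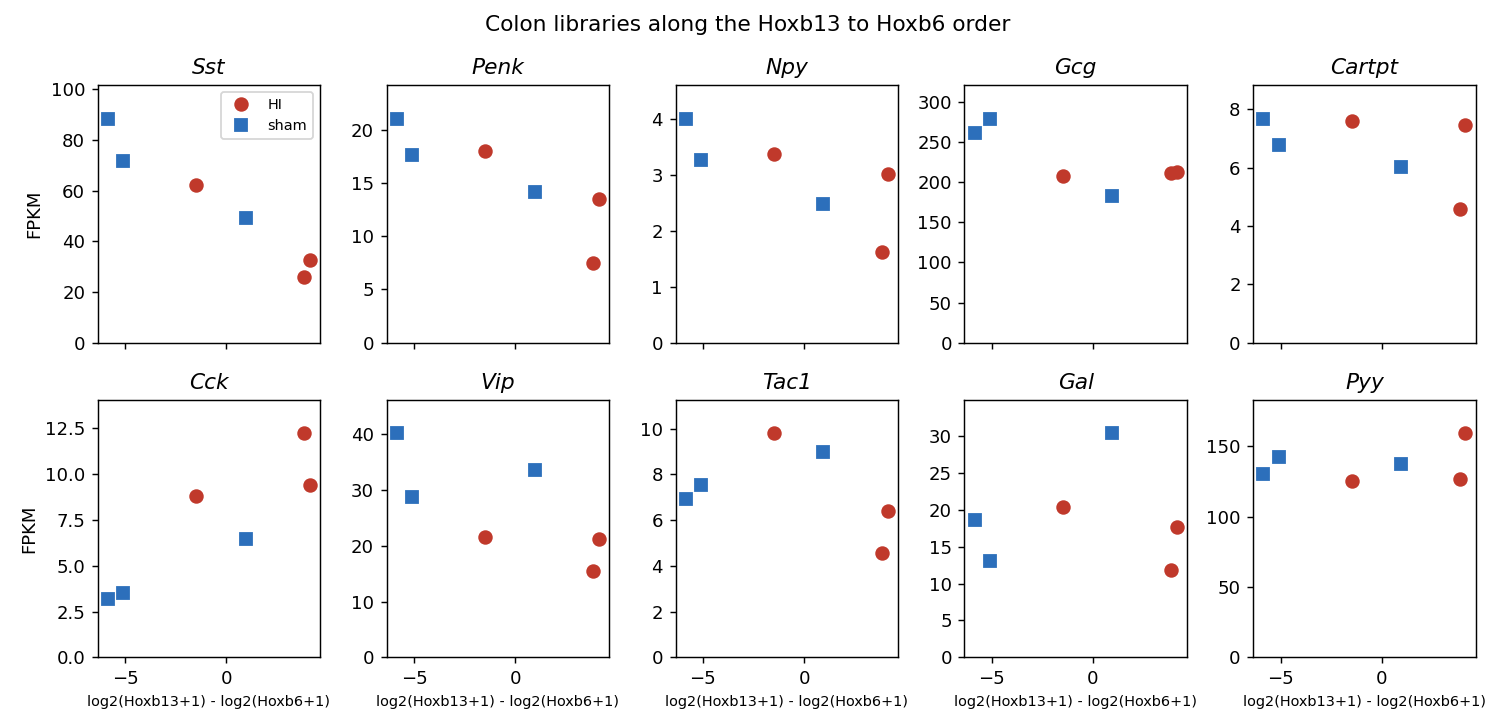
FPKM of the 10 genes in the 6 colon libraries (vertical axis, from 0) against log2(Hoxb13 + 1) - log2(Hoxb6 + 1) of the same library (horizontal axis), with circles for HI and squares for sham. Sst runs down from 88.5 to 25.9 FPKM across both groups, Cck is lowest in the 2 sham libraries at the left, and Pyy stays between 125 and 159 FPKM.

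The promoters of Sst and Vip, the members with the largest negative differences in the colon, are shown with that of Cartpt, which had a difference near 0. They are RefSeq sequences of the rat assembly GRCr8, each 300 bases from 250 before to 50 after the annotated start, 5′ to 3′ on the strand of the gene. Capitals mark TGACG or its reverse complement CGTCA, the core of the cyclic AMP response element, at which the factor CREB is known to bind. Sst is at chr11:90461296-90461595 (+ strand), Vip at chr1:44470230-44470529 (+ strand) and Cartpt at chr2:32991186-32991485 (- strand).
Sst: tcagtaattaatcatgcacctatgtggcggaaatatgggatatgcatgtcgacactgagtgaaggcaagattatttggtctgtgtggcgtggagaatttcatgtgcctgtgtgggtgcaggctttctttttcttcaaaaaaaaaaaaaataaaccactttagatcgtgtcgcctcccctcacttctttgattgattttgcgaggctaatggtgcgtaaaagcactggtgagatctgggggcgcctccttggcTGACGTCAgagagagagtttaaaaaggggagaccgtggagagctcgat
Vip: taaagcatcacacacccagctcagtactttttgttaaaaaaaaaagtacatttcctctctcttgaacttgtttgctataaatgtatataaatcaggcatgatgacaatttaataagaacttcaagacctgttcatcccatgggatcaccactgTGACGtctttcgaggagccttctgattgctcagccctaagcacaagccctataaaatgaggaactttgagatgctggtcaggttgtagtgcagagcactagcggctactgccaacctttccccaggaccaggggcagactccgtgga
Cartpt: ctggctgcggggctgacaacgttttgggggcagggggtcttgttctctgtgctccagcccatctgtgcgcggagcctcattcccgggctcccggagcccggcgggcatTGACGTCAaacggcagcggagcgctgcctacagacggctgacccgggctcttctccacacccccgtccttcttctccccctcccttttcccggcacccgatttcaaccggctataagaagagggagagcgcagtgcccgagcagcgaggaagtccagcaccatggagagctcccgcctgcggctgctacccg
The full palindrome TGACGTCA was found in the windows of Sst and Cartpt and in 1.83% of all 33469 promoters of the table, searched on both strands. The core TGACG or CGTCA, which is part of the palindrome, was found in Vip, Sst, Tac1, Gal and Cartpt and in 21.2% of all promoters. The element is at offset 2 from the annotated start in Sst, -142 in Cartpt and, as the core alone, -97 in Vip. The annotated starts were not checked against measured transcript starts, so these offsets depend on the annotation. Sst and Cartpt thus hold the same palindrome, and their slopes along the Hox order were -0.14 ± 0.025 and -0.044 ± 0.029 (SE), a difference that was not tested. Of the 10 genes 8 were in this promoter table, and Cck and Penk were not.

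In the hippocampus Cck was the gene in which HI and sham did not overlap, and it was lower in HI. It had 81.8, 90.3 and 104 FPKM in HI 1, 2 and 3, against 109, 119 and 131 FPKM in sham 1, 2 and 3. The highest HI library was just below the lowest sham library. The log2 difference was -0.38 ± 0.10 (SE; 95% interval -0.61 to -0.15; limma adjusted p = 0.672, unadjusted p = 0.00495). Without HI 1, the library with high Ttr and high Y chromosome genes, it was -0.30 ± 0.094 (adjusted p = 0.923). Cck was 1 of 8 genes tested there with an unadjusted p under 0.05, beside 6.62% of all 13181 genes, and 1 of 8 without overlap, beside 13.2%. In the direction of Cck, lower in HI, these shares of all genes were 3.16% and 6.81%, and in the other direction 0 of the 8 were counted, beside 3.45% and 6.40%. The difference was below 0 for 6 of the 8, beside 50.5% of all genes. By limma 0 of the 8 passed an adjusted p of 0.05, as did 0.00759% of all genes.

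Sst, the marker of a class of interneurons that contact dendrites, had 187, 247 and 254 FPKM in HI 1, 2 and 3, against 238, 271 and 276 FPKM in sham 1, 2 and 3. Tac1 had 7.65, 13.3 and 13.1 FPKM in HI 1, 2 and 3, against 13.2, 14.6 and 13.7 FPKM in sham 1, 2 and 3. In both, HI 1 was the lowest library. HI 2 and HI 3 lay within the sham range for Sst, and for Tac1 HI 2 did, while HI 3 was just below the lowest sham library. The log2 difference of Sst was -0.20 ± 0.12 (SE) with HI 1 and -0.061 ± 0.075 without it, and that of Tac1 was -0.30 ± 0.18 with HI 1 and -0.064 ± 0.077 without it.

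Npy and Vip overlapped between HI and sham in the hippocampus. Npy had 43.7, 50.3 and 45.0 FPKM in HI 1, 2 and 3, against 45.0, 46.0 and 50.6 FPKM in sham 1, 2 and 3. Its log2 difference was -0.026 with a 95% interval of -0.20 to 0.14 (limma adjusted p = 0.950). Vip, a product of interneurons that inhibit other interneurons, had 9.65, 10.4 and 10.996 FPKM in HI 1, 2 and 3, against 10.2, 10.8 and 10.95 FPKM in sham 1, 2 and 3. Its log2 difference was -0.039, with an interval of -0.21 to 0.14 (adjusted p = 0.925).

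Gal and Penk had higher means in HI than in sham, with overlap. Gal had 3.86, 2.65 and 2.50 FPKM in HI 1, 2 and 3, against 1.54, 2.10 and 2.86 FPKM in sham 1, 2 and 3. Penk had 9.86, 12.4 and 6.996 FPKM in HI 1, 2 and 3, against 6.72, 6.94 and 10.5 FPKM in sham 1, 2 and 3. In each, sham 3 lay among the HI libraries. Their log2 differences of 0.34 ± 0.19 and 0.24 ± 0.21 (SE) did not pass (limma adjusted p = 0.762 and 0.821). With 1 library left out the difference of Gal lay between 0.19 (without sham 1) and 0.50 (without sham 3), and that of Penk between 0.068 (without HI 2) and 0.44 (without HI 3). Cartpt ranged from 4.31 to 6.07 FPKM in HI and from 4.82 to 5.73 FPKM in sham, a difference of -0.028 ± 0.12 (SE). Gal was the 1 gene of the 8 whose highest library was at least 2 times the lowest, beside 7.90% of all genes.

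**Figure D3:**
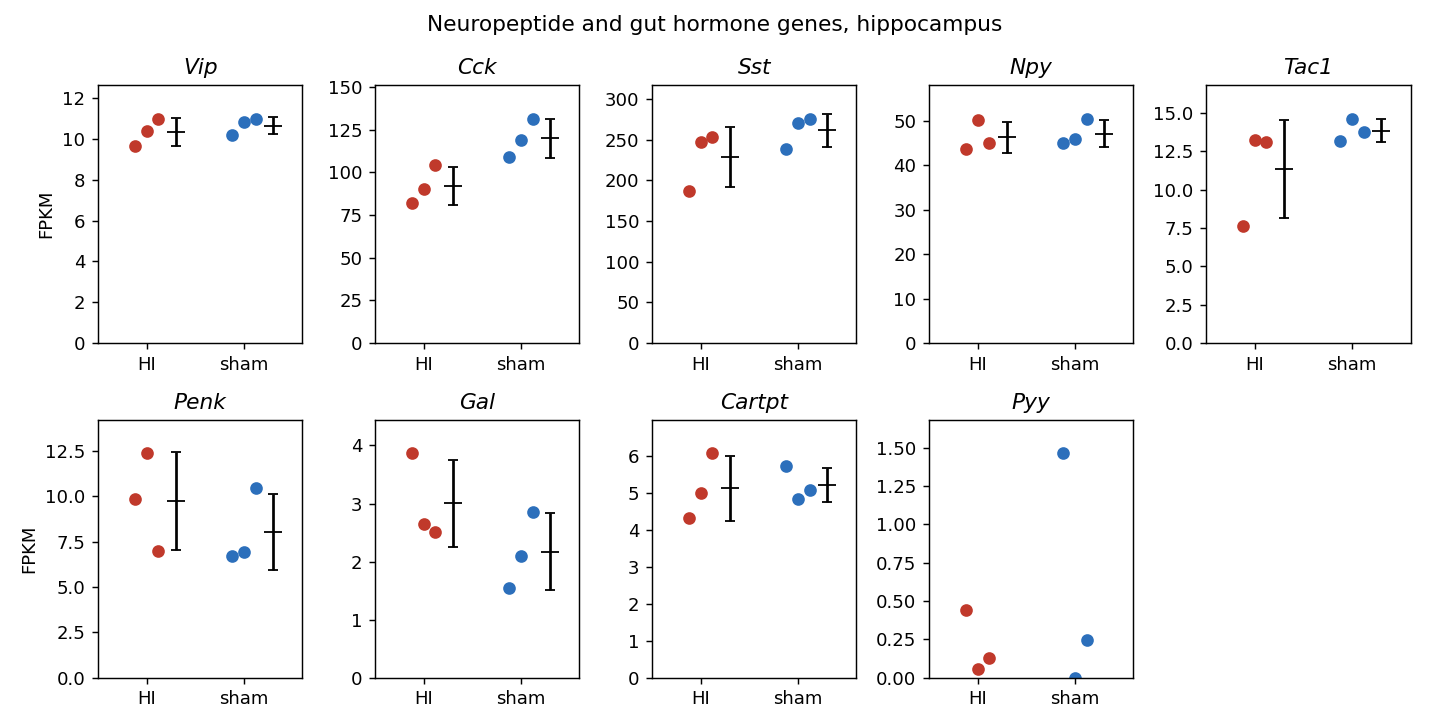
FPKM of the 9 listed genes in the hippocampus, 1 point per library with HI on the left and sham on the right; bars are the mean and SD of 3 libraries, left out for Pyy, which is listed at 0 in 1 library. Cck lies at 81.8 to 104 FPKM in HI and 109 to 131 FPKM in sham, and HI 1, the first point of each HI group, is the lowest library for Tac1 at 7.65 FPKM.

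HI 1 was the hippocampus library with the lowest value for 6 of the 8 genes tested, Gal and Penk being the exceptions, and for 24.9% of all genes. Of the 20 tested markers of inhibitory interneurons, 11 had their lowest value in HI 1 and 6 in sham 3, the lowest library for 17.3% of all genes. Of 11 markers of excitatory neurons, 3 had their lowest value in HI 1. HI 1 was also lowest for 9 of 14 genes for precursor cleavage and granules and 7 of 13 tested enteric neuron markers. Among 15 glial and vascular markers it was lowest for 2. The enteric neuron markers listed in the hippocampus summed to 2487 to 2840 FPKM in HI and 2944 to 2981 FPKM in sham, without overlap. The interneuron markers summed to 460 FPKM in HI 1 and to 520 and 536 FPKM in HI 2 and HI 3, against 520 to 541 FPKM in sham. Of these 20, 0 passed and 0 reached an unadjusted p under 0.05 by limma, 13 were lower in HI, and the median log2 difference was -0.09, beside -0.0015 over all genes. Slc32a1, the vesicular GABA transporter, differed by -0.19 ± 0.10 (SE). The excitatory markers had a median of -0.029, with 0 of 11 passing and 0 at an unadjusted p under 0.05, and their sum was 2274 to 2449 FPKM in HI and 2297 to 2384 FPKM in sham. Glial and vascular markers summed to 2060 to 3183 FPKM in HI and 1977 to 2692 FPKM in sham, and 1 of 15, the oligodendrocyte factor Sox10, had an unadjusted p under 0.05 (0.29 ± 0.12). Markers of neighbouring brain regions summed to 4401 FPKM in HI 1, nearly all of it Ttr, to 132 and 136 FPKM in HI 2 and HI 3, and to 111 to 134 FPKM in sham. Sim1 and Otp of that list were not listed, and the choroid plexus gene Folr1 stood at 57.4 FPKM in HI 1, at 2.37 and 2.76 FPKM in HI 2 and HI 3, and at most at 2.58 FPKM in sham. HI 1 was also the hippocampus library with high Y chromosome genes, so the differences without HI 1 do not set these markers apart. The part of these markers in the peptide values was not tested.

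The HI differences of the tissues were compared in 1 fit over the 12 libraries. Genes of the Y chromosome were high in all colon libraries except sham 1, and in the hippocampus in HI 1 alone. Tissue could thus hardly be told apart from the presence of these transcripts in this fit. Within each tissue their presence was also partly tied to HI. The 1 library that differed was a sham library in the colon and an HI library in the hippocampus. The part of these transcripts in the HI differences was not tested. The HI difference of Cck was 1.47 ± 0.27 larger in the colon than in the hippocampus (SE, log2; 95% interval 0.88 to 2.05), with opposite signs in the tissues. This did not pass over the 13015 genes tested (limma adjusted p = 0.256, unadjusted p = 0.000139), of which 0.0154% did. Without colon sham 3b it was 1.73 and passed (adjusted p = 0.00267). With any other library left out it was 1.31 to 1.56 and did not pass (adjusted p of 0.0944 to 0.597). For Vip the HI difference in the colon minus that in the hippocampus was -0.75 ± 0.19 (SE; 95% interval -1.15 to -0.34; adjusted p = 0.360). Of the 9 genes in this fit Pyy passed the filter through its colon level alone, and no difference is read for it. Of the other 8, Cck and Vip had an unadjusted p under 0.05, beside 9.20% of all genes, and 6 differences were below 0, beside 59.2% of all genes. For Penk (-0.71 ± 0.39), Sst (-0.64 ± 0.39) and Gal (-0.60 ± 0.39) the interval included 0.

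**Figure D4:**
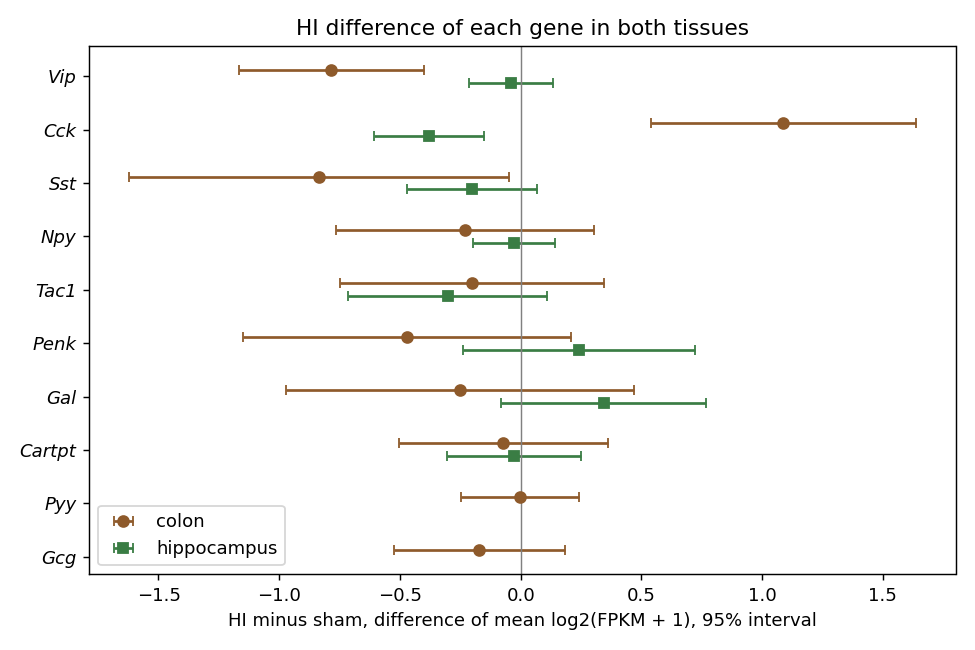
HI minus sham difference of mean log2(FPKM + 1) for each gene, circles for the colon and squares for the hippocampus, with 95% intervals from limma; Pyy and Gcg have no hippocampus value. In the colon the intervals of Vip (-1.17 to -0.40), Cck (0.54 to 1.64) and Sst leave out 0, and in the hippocampus that of Cck (-0.61 to -0.15) does, before adjustment for the number of genes.

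Of 26 genes for receptors of these peptides 15 were listed and 14 tested in the colon, where 0 passed for HI and the median log2 difference was -0.0058. Sstr1, a somatostatin receptor, was the gene with an unadjusted p under 0.05. It had 12.4, 20.5 and 21.2 FPKM in HI 1, 2 and 3, against 5.18, 7.29 and 16.7 FPKM in sham 1, 3a and 3b. Along the Hox order Sstr1 rose by 0.17 ± 0.029 per unit (SE; limma adjusted p = 0.0309), whereas Sst fell. Vipr2, a receptor of vasoactive intestinal peptide, ranged from 5.06 to 6.85 FPKM in HI and from 5.97 to 6.93 FPKM in sham. In the hippocampus 13 receptor genes were tested and 0 passed, with a median of -0.13, beside -0.0015 over all genes. Of the 13, 11 were lower in HI, beside 50.5% of all genes, and 10 had their lowest value in HI 1, beside 24.9%. Tacr1 and Tacr3, receptors of the tachykinins, had an unadjusted p under 0.05. Tacr1 had 1.01, 1.80 and 1.40 FPKM in HI 1, 2 and 3, against 2.57, 2.82 and 2.05 FPKM in sham 1, 2 and 3, a log2 difference of -0.54 ± 0.15 (SE; adjusted p = 0.672). Tacr3 had 1.61, 3.49 and 3.48 FPKM in HI 1, 2 and 3, against 3.75, 4.85 and 5.03 FPKM in sham 1, 2 and 3, a difference of -0.56 ± 0.21 (adjusted p = 0.729).

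Genes for precursor cleavage and granules had 0 of 13 passing in the colon (median -0.11) and 0 of 14 in the hippocampus (median -0.050). Cadps2, a factor of granule release, was the member with an unadjusted p under 0.05 in the colon (0.24 ± 0.092, SE), and there was none in the hippocampus. Chga, the chromogranin A gene of hormone cells, ranged from 68.3 to 86.1 FPKM in the HI colon and from 68.6 to 72.0 FPKM in the sham colon. Cpe, the carboxypeptidase that trims peptide precursors, differed by -0.14 ± 0.091 in the colon and 0.10 ± 0.054 (SE) in the hippocampus.

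Other neuropeptide precursors had 0 of 11 passing for HI in the colon (median -0.041), with Gnrh1 alone at an unadjusted p under 0.05 (-0.44 ± 0.17, SE). Nts, the neurotensin gene, whose peptide is released from gut hormone cells, varied more than any of the 10 members. It had 18.4 (sham 3a), 22.8 (sham 1), 12.4 (HI 1), 3.31 (sham 3b), 0.204 (HI 2) and 0.476 FPKM (HI 3) in the Hox order. Nts fell along that order by 0.46 ± 0.057 per unit (SE; limma adjusted p = 0.0103), as Sst did. In the hippocampus 0 of 13 passed (median -0.12). Nmb, the neuromedin B gene, differed by 0.46 ± 0.18, and Grp, the gastrin-releasing peptide gene, by -0.75 ± 0.29 (SE). Grp had 6.34, 18.3 and 9.74 FPKM in HI 1, 2 and 3, against 18.2, 19.1 and 17.9 FPKM in sham 1, 2 and 3.

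Other gut hormones and markers of hormone cells had 0 of 11 passing for HI in the colon (median -0.13), and their sum was 67.7 to 85.3 FPKM in HI and 74.6 to 79.3 FPKM in sham. Fev, a factor of serotonin cells, differed by -0.44 ± 0.18 (SE) and Sct, the secretin gene, by -0.63 ± 0.31. Isl1, a transcription factor of hormone cells, rose along the Hox order by 0.13 ± 0.024 per unit (SE; limma adjusted p = 0.0369). In the hippocampus 7 of the list were tested and 0 passed (median -0.12). Of 8 pancreas markers 2 were listed in the colon, where the digestive enzyme genes Prss1, Cpa1 and Pnlip and the insulin genes were not. Iapp, the amylin gene, fell along the Hox order by 0.18 ± 0.027 per unit (SE; adjusted p = 0.0182), and 0 of 2 passed for HI (median -0.56). In the hippocampus Pnlip was the pancreas gene listed, with a difference of 0.41 ± 0.24.

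Neuronal activity genes, which are transcribed soon after a stimulus, had 0 of 8 passing in the colon (median 0.32) and 0 of 13 in the hippocampus (median 0.16). In the colon 1 of the 8 was lower in HI, beside 59.1% of all genes, and 2 had an unadjusted p under 0.05, beside 11.1%. In the hippocampus 1 of the 13 was lower in HI, beside 50.5% of all genes, and 5 had an unadjusted p under 0.05, beside 6.62%. Fos, a subunit of the factor AP-1, had 29.0, 46.9 and 26.1 FPKM in the HI colon and 6.05, 4.92 and 18.6 FPKM in the sham colon (sham 1, 3a, 3b). In the hippocampus Egr1 differed by 0.41 ± 0.078 (SE), Arc by 0.50 ± 0.12 and Nr4a1 by 0.35 ± 0.085, with adjusted p of at least 0.599. The epithelium and muscle markers of the colon summed to 9215 to 10362 FPKM in HI and 8238 to 9903 FPKM in sham, with 0 of 11 passing and the muscle gene Des alone at an unadjusted p under 0.05 (0.39 ± 0.16, SE). Of 12 glial and vascular markers in the colon 0 passed, with a median of 0.0046. Markers of brain cells in the colon had 0 passing for HI among 6 of inhibitory interneurons (median -0.13), 6 of excitatory neurons (median -0.10) and 10 of neighbouring brain regions (median -0.29). Of these, 0, 3 and 3 had an unadjusted p under 0.05, beside 11.1% of all genes. Nrgn, the neurogranin gene, rose along the Hox order by 0.21 ± 0.019 per unit (SE; limma adjusted p = 0.00411). In the hippocampus 0 of 13 enteric neuron markers passed (median -0.050, 2 at an unadjusted p under 0.05, beside 6.62% of all genes), and 0 of 8 colon epithelium and muscle markers did (median -0.54, 3 at an unadjusted p under 0.05). In the muscle list the smooth muscle gene Acta2 differed by -0.98 ± 0.20 (SE).

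Genes with a pattern like that of a member were sought among 9558 colon genes and 8997 hippocampus genes with a mean of at least 5 FPKM, by Pearson's r over the 6 libraries of a tissue. The best r was between 0.980 and 0.999 for each of the 18 tested pairs of gene and tissue, also for members that hardly varied, so a high r over 6 libraries sets no gene apart. For Vip in the colon they were Dctpp1 (0.996), Phc1 (0.994) and Igfbp5 (0.992). For Cck in the colon they were Fam84a (0.997), Timp1 (0.995) and Fos (0.994). For Sst in the colon they were Myef2 (0.999), Nadk2 (0.998) and Slc27a4 (0.997), and for Gal in the hippocampus Gstm1 (0.992) and Mbd2 (0.984) were among them. For Penk, Npy and Tac1 in the colon the best were Pdhb (0.998), Lrrc45 (0.997) and Cblb (0.986).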

How the data were processed

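RNA of rat colon and hippocampus was sequenced after mRNA purification, per the labels' protocols. The values are FPKM as deposited by the authors, 1 table for each tissue. Aligner, quantifier, genome build and annotation: not given in the sources used here. The colon header names 2 sham columns alike, so these carry no replicate number.

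The members, the gene lists and the tests were chosen with earlier results of these data known. After a filter for 1 FPKM or more in 3 libraries or more, log2(FPKM + 1) was fitted with limma 3.58.1 in R 4.3.3 (eBayes with a mean-variance trend), per tissue for HI minus sham, over the 12 libraries for the difference of the tissues, and in the colon for the slope on the Hox value with HI as a second term. P-values were adjusted over all genes tested (Benjamini-Hochberg, threshold 0.05), and intervals are 95%. The test was also tried on simulated data with independent normal noise. Those data hold no outlying library, so the trial does not bear on results that rest on single libraries. A fold change on this scale understates that of low genes, and a symbol at several identifiers was taken at the highest mean. Nothing states that libraries came from separate animals, so p-values reflect their spread, possibly a technical one. Promoters came from RefSeq (GRCr8), matched by symbol for 8 of 10 members. The rule for named genes took all members, called genes of each of 12 lists or up to 4 with the smallest p, and the 3 genes most like a member whose highest library was at least 2 times its lowest. Some genes that the rule would name are not reported here.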

Additional observations from a re-analysis of the deposited data

Results flagged for a closer look

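Cck was picked out because all 3 HI libraries were above all 3 sham libraries in the colon and below all 3 in the hippocampus. The HI difference was 1.47 larger in the colon than in the hippocampus on the log2 scale, and this difference did not pass when tested over all genes (limma adjusted p = 0.256, and 0.00267 to 0.597 with 1 library left out).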

How the results depend on the processing

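By number of genes called, the colon comparison gave 6, and with 1 library left out 2 (HI 3) to 38 (sham 3b); it gave 2 with the Hox value as a covariate, 24 in 1 fit over the 12 libraries and 3 without the mean-variance trend. The hippocampus gave 1, and with 1 library left out 0 to 5; it gave 0 with a pseudocount of 0.1, 0 without the trend and 0 with a replicate block. The difference of the tissues gave 2, and with 1 library left out 1 to 25; it gave 1 with a pseudocount of 0.1 and 1 with median-ratio scaling. The Hox slope gave 362, and with 1 library left out 65 to 407; it gave 1049 without HI in the fit.

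The replicate numbers share no stated origin, and deviations of same-numbered hippocampus libraries correlated at -0.05, 0.08 and -0.03, so the block, under which Cck had an adjusted p of 0.502, says nothing of pairs. No paired analysis was possible because the colon sham columns do not carry all numbers, for the colon, the slope and the difference of the tissues.

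Of 460 values of members under alternatives 421 kept their sign and side of the threshold, 6 passed where they had not, 4 no longer passed and 29 changed sign without a call. Those that passed were Cck in the colon (1.35 without sham 3b, 1.09 in 1 fit over the 12 libraries), Vip in the colon (-0.78 in that fit), Cck between the tissues (1.73 without colon sham 3b) and the slope of Cck (0.11 without HI 3, 0.14 without HI in the fit). The 4 are the slope of Sst given above. With the Hox value as a covariate, colon differences turned to 0.15 for Npy, 0.058 for Penk, 0.17 for Cartpt and 0.0875 for Gcg. At equal enteric neuron markers that of Cartpt was 0.078, and with median-ratio scaling that of Pyy was 0.037. With 1 library left out, values that changed sign at least once ran as follows. In the colon they were -0.45 to 0.0245 for Tac1, -0.53 to 0.053 for Gal, -0.18 to 0.13 for Cartpt and -0.12 to 0.054 for Pyy. In the hippocampus they were -0.080 to 0.0063 for Vip, -0.086 to 0.024 for Npy and -0.14 to 0.069 for Cartpt. For the colon minus the hippocampus they were -0.35 to 0.02 for Npy, -0.15 to 0.33 for Tac1 and -0.15 to 0.16 for Cartpt. The values for Pyy, -0.10 to 0.55, are no usable test, since it was too low in the hippocampus. Slopes were -0.13 to 0.047 for Tac1, -0.089 to 0.14 for Gal and -0.085 to 0.0068 for Gcg. The cause of these changes was not tested. The depth is unknown, so what it limits could not be computed.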
